A study of Homo sapiens with 11 samples.

Results

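The arrays were asked which genes moved the same way in both cell lines when TRIM58 was overexpressed. TRIM58 is a ubiquitin ligase of the tripartite motif family, which marks other proteins for breakdown. A549 and HCC827 are established human lung adenocarcinoma cell lines. Cells of each line were infected with a retrovirus made from the empty pMXs-Neo vector (mock) or from the vector with FLAG-tagged wild-type TRIM58 (TRIM58-WT), and all groups were selected with G418. All 11 arrays of the series were used: 4 of A549 mock, 3 of A549 TRIM58-WT, 2 of HCC827 mock and 2 of HCC827 TRIM58-WT. A549 mock arrays 1-1 and 1-2 carry the label of the same control cell and were averaged, which left 10 replicates, 5 mock and 5 TRIM58-WT. According to the methods, clones were isolated after selection, so a group may be a small number of clones. What a clone carries besides the vector cannot be told apart from TRIM58 within a line. A figure legend of the study numbers clones for A549 only and calls HCC827 control cells crude transfectants. The HCC827 groups may therefore be uncloned, or clonal and uncloned cells may be mixed, and the labels do not say which. Nothing in the labels says that the cultures were independent, and p-values measure the spread between these replicates. The SD of the log2 signal between arrays 1-1 and 1-2, on different slides, was 0.27. For the A549 pair of TRIM58-WT replicates 2 and 3, both on slide 2, it was 0.23. The HCC827 pairs gave 0.43 (mock) and 0.61 (TRIM58-WT). Whether the A549 pair is 1 culture counted as 2 replicates was not tested. If so, SE and p are too small, and counts with this pair averaged are given among the alternatives.

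Each 1-colour Agilent array gave an intensity for 42405 probes. Levels below are the log2 intensity minus the 75th percentile of the array, so that a level of 0 equals that percentile, and a change is TRIM58-WT minus mock on this log2 scale. For each probe, the mean of the A549 change and the HCC827 change was tested in a single limma fit of the 4 group means, in which both lines weighed the same. In what follows, rose and fell refer to this mean, and the value of each line stands beside it, whether or not it passed a test of its own. The scanner software flags each spot whose signal is well clear of its local background, and a probe so flagged is called above background here. Tests were limited to probes that cleared it throughout at least 1 group in each line, 15845 in all, of 10551 named genes. A probe was called when the Benjamini-Hochberg adjusted p of limma was under 0.05 and the mean change at least 2-fold. A gene moved alike when its probe was called and when, in each line, every TRIM58-WT replicate lay on the same side of every mock replicate. Non-overlap was part of this choice and is not used as evidence. The filter fixes a second pattern. A tested probe in the background throughout 1 group of a line must be above it throughout the other group. Such patterns are given below as descriptions only. Where a group stayed in the background, its fitted change rests partly on background signal, and a bound (at least N-fold) is given for the leading genes.

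A lung adenocarcinoma arises from epithelial cells that line the airways and alveoli, and such cells make cell adhesion molecules, secreted protective proteins and the proteins of the basement membrane on which they sit. Fibroblast growth factors, thrombin receptors and transforming growth factor beta are signals between these cells and the connective tissue around them. Prostaglandins are lipid signals made from membrane phospholipids in a chain of enzymes that epithelial tumours often use.

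The probe of TRIM58 itself could not check the labels. In the TRIM58-WT replicates it stayed in the background, at -4.84, -4.63 and -4.63 in A549 and -5.64 and -5.38 in HCC827. In the mock replicates the level was -5.30, -5.18 and -0.71 in A549 and -5.15 and -5.25 in HCC827. The library labelled A549 mock replicate 3 was thus the single one with a TRIM58 signal above background. Only the coding sequence was cloned into the vector, and whether the probe reads that part was not analysed here. Every direction below goes by the labels. The 75th percentile of the intensity was 60.3 in A549 mock replicate 3 and 62.5 and 56.6 in A549 TRIM58-WT replicates 2 and 3, all on slide 2, and 90.5 to 125 on the other arrays. Epithelial genes were above background in both lines (at least 14 of 29 on every array), whereas 7 of 9 fibroblast markers and 7 of 8 endothelial markers were not so on any array.

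Over both lines, the mean change was called for 386 probes, 175 higher and 211 lower in TRIM58-WT, which is 2.44% of those tested. Without the 2-fold threshold, 1053 probes had an adjusted p and 3420 an unadjusted p under 0.05. Of the 386 probes, 311 had the same sign in both lines and 75 had opposite signs, so a called mean could come with opposite changes. The groups did not overlap in either line, with the sign of the mean, for 253 probes. Of these, 136 were higher (0.858% of all tested) and 117 lower (0.738%), and they named 217 genes, 110 higher and 107 lower. A further 22 of the 253 probes carried no gene symbol. In RNA of whole cultures, fewer cells that express a gene and less RNA per cell cannot be told apart. The share of higher calls depended on the scaling, since it was 45.3% after the 75th percentile shift and 22% after each array was centred on its median instead, which moved the median change of all probes by -0.17. With that centring 41 genes were higher and 133 lower alike, 130 of them among the 217.

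The shared changes were mostly larger in A549. The median change of the probes that moved alike was 1.77 in A549 and 0.85 in HCC827 for the increases, and -2.21 and -0.89 for the decreases. The A549 change was the larger in size for 219 of the 253 probes, and both lines passed 2-fold for 89 of them, 41 higher and 48 lower. The change of each line was also tested in the same fit, and this is what a line's own test means here. By it, 7.29% of the probes were called in A549 and 0.429% in HCC827. The fit uses 1 spread per probe for all 4 groups. The median SD of the tested probes was 0.25 in A549 mock and 0.28 in A549 TRIM58-WT. It was 0.10 in HCC827 mock and 0.13 in HCC827 TRIM58-WT. The change of 3.53% of all tested probes differed between the lines at an adjusted p under 0.05, and this held for 45 of the 253 that moved alike. HCC827 changes alone thus rarely passed the test. HCC827 had 2 replicates a group, the smaller shared changes and a test whose spread was shared with the more variable A549 groups. The part of each in the low share was not tested. At an adjusted p under 0.05 and at least 2-fold in each line, 6 genes with a symbol passed in both lines with the same sign, namely COPZ2, FSTL1 and HHAT, which were higher, and DOCK11, FBXL16 and MYCL, which were lower.

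Across all tested probes the changes of the lines had a Pearson correlation of -0.01 and a Spearman correlation of 0.00 over 15845 probes, which are not independent. Both lines separated in the same direction for 10.2% of the probes and in opposite directions for 7.64%. When the same rule was turned to opposite directions, with the HCC827 change reversed before the mean was taken, 244 probes were called and 147 of them, of 122 genes, separated in opposite directions. A change of 2-fold or more in each line had the same sign for 117 probes and opposite signs for 130.

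**Figure D1:**
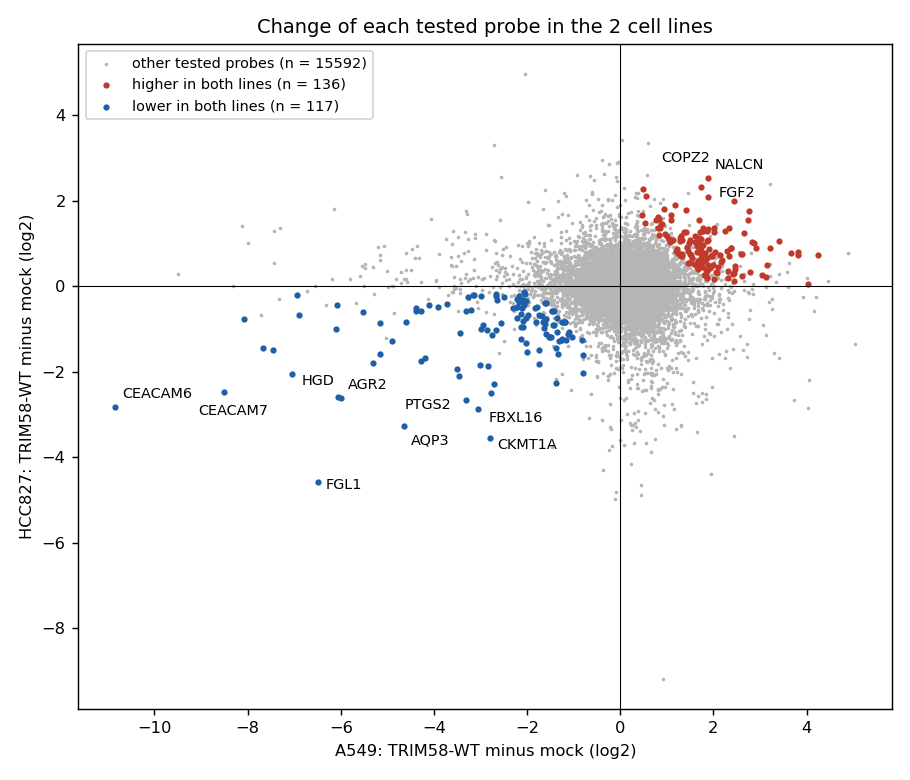
Change of each of the 15845 tested probes (TRIM58-WT minus mock, log2) in A549 on the x axis and in HCC827 on the y axis, with probes that moved alike in red (136 higher) and blue (117 lower) and all others in grey. The blue points reach to -10.84 in A549 for CEACAM6, while in HCC827 the lowest of them is FGL1 at -4.57, and the grey points fill all 4 quadrants.

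Secreted signals and a receptor were among the 15 genes with the largest shared increases, ranked by the smaller of the 2 changes. FGF2, the basic fibroblast growth factor, had levels of -2.93, -2.79 and -1.46 in A549 mock and -0.64, -0.43 and -0.43 in A549 TRIM58-WT. It was above background on only 1 of the 4 A549 mock arrays. In HCC827 it stood at -3.71 and -3.44 in mock, not above background, and at -1.36 and -1.61 in TRIM58-WT. The mean change was 1.99 ± 0.28 (SE, n = 5 and 5, limma adjusted p = 0.00725), and FGF2 was at least 3.36-fold higher in HCC827 against the detection floor of the mock arrays. The HCC827 change alone, 2.09, did not pass its own test (adjusted p = 0.0917). FSTL1 encodes a secreted glycoprotein of the follistatin family. Its levels were 2.99, 3.29 and 3.41 in A549 mock against 5.22, 4.68 and 4.86 in TRIM58-WT, and 1.96 and 1.83 in HCC827 mock against 3.66 and 3.20 in TRIM58-WT. FSTL1 was thus well expressed in every replicate and rose 3.22-fold in A549 and 2.90-fold in HCC827, with a mean change of 1.61 ± 0.16 (SE, adjusted p = 0.00162). F2R, the thrombin receptor PAR1, was not above background on any A549 mock array and was at least 2.12-fold higher there in TRIM58-WT. Its mean change of 1.95 (adjusted p = 0.0441) did not hold in 8 of the 10 fits with a replicate left out, where the adjusted p reached 0.157.

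Genes of vesicles, motors and the cytoskeleton formed a second group of increases. COPZ2, a subunit of the coat of COPI vesicles, changed regularly in both lines. Its levels were -1.24, -1.39 and -1.39 in A549 mock and 0.54, 0.22 and 0.43 in TRIM58-WT. HCC827 gave -3.45 and -4.0 in mock, not above background, and -1.37 and -1.45 in TRIM58-WT. The gap between the groups was wide against the spread in both lines, and the mean change was 2.02 ± 0.13 (SE, adjusted p = 0.000423). The HCC827 change of COPZ2, 2.31, also passed its own test (adjusted p = 0.00566), as among these 15 genes did that of FSTL1 alone (adjusted p = 0.0443). KIF3C, a kinesin motor, was in the background on all mock arrays and so, by the filter, above it on all TRIM58-WT arrays. It was at least 3.29-fold higher in A549 and 2.02-fold higher in HCC827 (mean change adjusted p = 0.00705). TMSB15B, which encodes a thymosin that binds actin monomers, showed the same pattern with bounds of 1.86-fold and 1.38-fold (adjusted p = 0.0126). Its probe may also read the near-identical TMSB15A. WTIP, a LIM protein of the Ajuba family, rose 4.05-fold in A549 and 2.56-fold in HCC827 (adjusted p = 0.00926). ARHGAP22, which switches off the Rac GTPase, rose from -1.85, -1.79 and -3.77 to 0.45, 0.30 and 0.06 in A549, and from -1.59 and -1.96 to -0.09 and -0.34 in HCC827 (mean change 2.15 ± 0.37, adjusted p = 0.0152). In ARHGAP22 the mock replicate 3 of A549 was the farthest from TRIM58-WT, unlike in most genes described here.

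The other increases of this rank were in enzymes, a channel and adhesion or adaptor proteins. DSE, an enzyme that turns chondroitin into dermatan sulfate, rose 4.75-fold in A549 and 2.43-fold in HCC827 (mean change adjusted p = 0.00653). ADARB1, which edits adenosines in RNA, changed almost equally in both lines, by 1.41 in A549 and 1.27 in HCC827 (adjusted p = 0.00577). NALCN, a sodium leak channel, was above background on the TRIM58-WT arrays of both lines and on no mock array, at least 2.52-fold higher in A549 and 1.80-fold in HCC827 (adjusted p = 0.0187). PLEKHA2, an adaptor that binds phosphoinositides, rose 3.69-fold and 2.53-fold, HYI 3.65-fold and 2.45-fold, and the cell adhesion protein KIRREL1 4.03-fold and 2.40-fold. ARSI, an arylsulfatase, was not above background in mock of either line and was at least 2.33-fold higher in A549 and 1.55-fold higher in HCC827. Of these 15 increases, 9 were found to move alike with every one of the 10 replicates left out in turn. The others were TMSB15B (8 of the 10), HYI (9), NALCN and ARHGAP22 (6 each), and KIRREL1 and F2R (2 each).

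**Figure D2:**
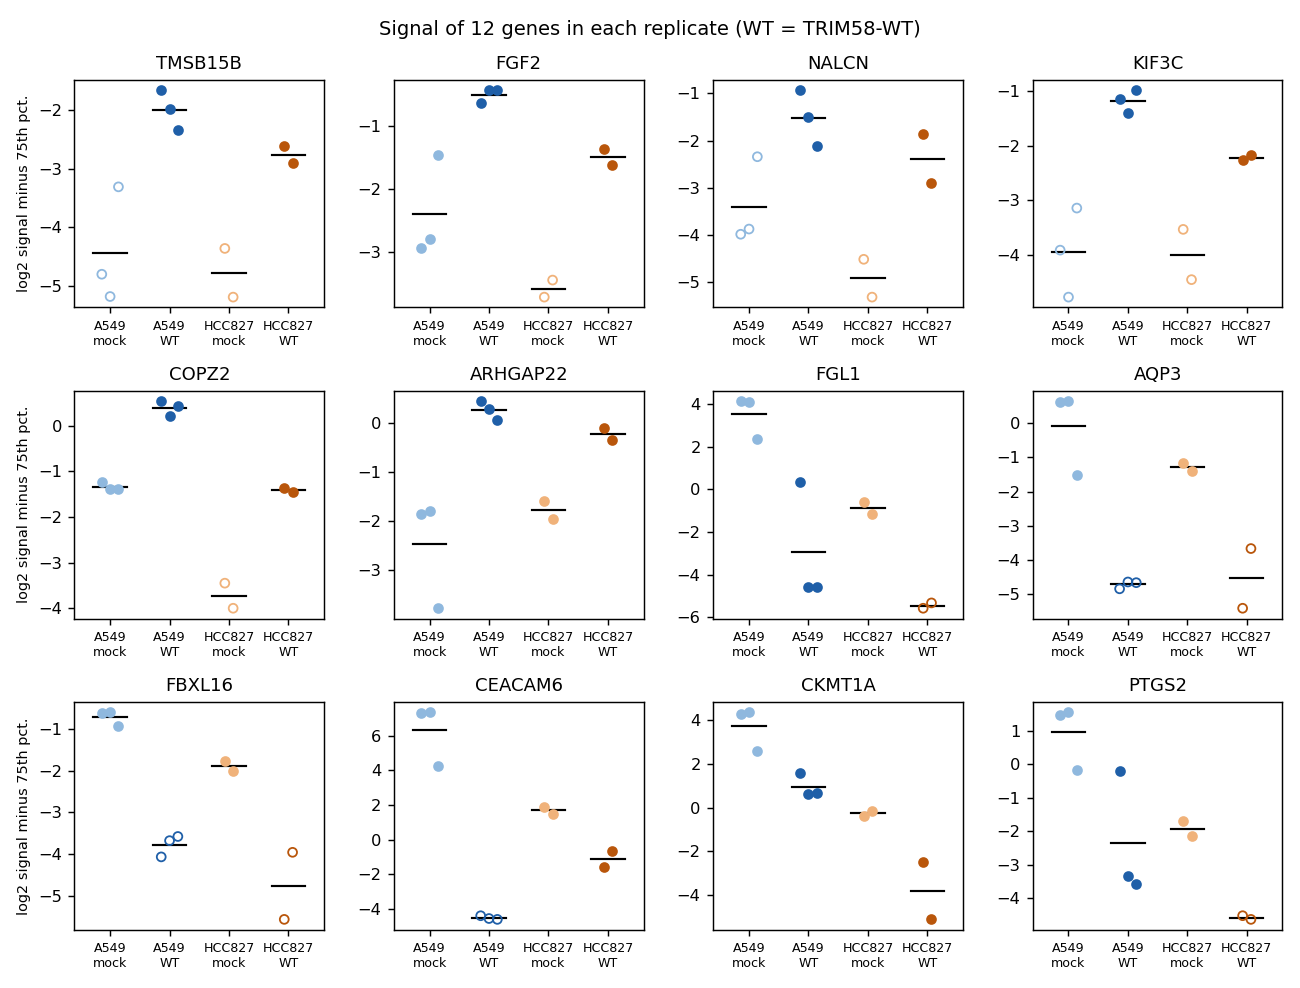
Level of 12 genes (log2 intensity minus the 75th percentile of the array) in each replicate of A549 (blue) and HCC827 (orange), with mock in the lighter and TRIM58-WT (WT) in the darker colour, a black line at each group mean, and open circles for groups in which no array was above background. The first 6 panels rose and the last 6 fell in both lines. In all panels but COPZ2 and ARHGAP22 the A549 mock replicate nearest to TRIM58-WT is replicate 3, for example -1.46 for FGF2 and 4.27 for CEACAM6.

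Secreted and surface proteins were among the 15 genes with the largest shared decreases. CEACAM6, a cell adhesion molecule of the carcinoembryonic antigen family, stood at 7.34, 7.35 and 4.27 in A549 mock and at -4.40, -4.56 and -4.61 in TRIM58-WT, where it was not above background. In HCC827 it went from 1.90 and 1.5 to -1.61 and -0.65. It was thus at least 493-fold lower in A549 and 7.10-fold lower in HCC827, the mean change being -6.83 ± 0.59 (SE, adjusted p = 0.00122), and the changes differed between the lines (adjusted p = 0.0113). CEACAM7, of the same family, was at least 125-fold lower in A549 and 5.55-fold lower in HCC827 (mean change adjusted p = 0.00598). Members of this family are similar in sequence, so their probes may share signal. AGR2, a disulfide isomerase that helps mucins fold, had levels of 6.48, 6.04 and 4.06 against 1.27, -1.41 and -1.29 in A549, and of 3.72 and 3.92 against 0.72 and 1.70 in HCC827. Its TRIM58-WT replicates spread widely, and the mean change was -4.31 ± 0.65 (SE, adjusted p = 0.00927). FGL1, a secreted fibrinogen-like protein, had A549 levels of 4.14, 4.10 and 2.38 in mock. In A549 TRIM58-WT replicate 1 it kept a level of 0.33, whereas replicates 2 and 3, at -4.56 and -4.58, were in the background. The A549 change was thus -3.82 within slide 1 and -7.80 within slide 2, and in HCC827 FGL1 was at least 5.61-fold lower (mean change adjusted p = 0.0145).

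Enzymes of lipid signalling and metabolism, and a channel, also fell. PLA2G4A, the cytosolic phospholipase that frees arachidonic acid, and PTGS2, the cyclooxygenase that turns it into prostaglandin precursors, both did. PLA2G4A had levels of 3.74, 3.76 and 2.59 against 1.38, 0.04 and 0.16 in A549, and of 0.59 and 0.52 against -1.30 and -1.32 in HCC827. Its mean change was -2.35 ± 0.32 (SE, adjusted p = 0.00708). For PTGS2 the A549 groups nearly met, since mock replicate 3 lay at -0.17 and TRIM58-WT replicate 1 at -0.19, with 1.47 and 1.55 in the other mock and -3.33 and -3.58 in the other TRIM58-WT replicates. In HCC827, PTGS2 stood at -1.70 and -2.16 in mock and at -4.53 and -4.64 in TRIM58-WT, not above background, which is at least 2.71-fold lower. The mean change of PTGS2, -2.99 ± 0.68 (SE, adjusted p = 0.0363), was lost in 8 of the 10 fits with a replicate left out, with an adjusted p of up to 0.132. AQP3, a channel for water and glycerol, was above background with 1 probe on every mock array and on no TRIM58-WT array of either line, at least 5.85-fold lower in A549 and 4.26-fold lower in HCC827 (mean change adjusted p = 0.00482). A brighter AQP3 probe, still above background on 1 A549 and both HCC827 TRIM58-WT arrays, also moved alike, by -6.06 and -2.60 (adjusted p = 0.00879). CKMT1A, a mitochondrial creatine kinase, changed by -2.79 in A549 (mean change adjusted p = 0.0151). In HCC827 it went from -0.37 and -0.14 to -2.50 and -5.12, and only 1 of the latter arrays was above background. A second probe was at least 2.14-fold lower in HCC827, where no TRIM58-WT array was above background. Its signal cannot be told apart from that of the near-identical CKMT1B. HGD, which breaks down homogentisate in tyrosine catabolism, was at least 94.3-fold lower in A549 and 4.18-fold lower in HCC827, a difference between the lines at an adjusted p of 0.0188.

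Regulators and scaffold proteins made up the rest of the 15 decreases. FBXL16, an F-box protein with leucine-rich repeats, fell into the background in both lines. Its levels were -0.62, -0.60 and -0.92 in A549 mock and -1.77 and -2.01 in HCC827 mock. On the TRIM58-WT arrays it was not above background, which gives at least 3.77-fold and 2.79-fold lower levels, with a mean change of -2.97 ± 0.29 (SE, adjusted p = 0.00155). SH3PXD2A, the scaffold protein TKS5 of invasive cell protrusions, was 6.52-fold lower in A549 and at least 2.94-fold lower in HCC827, where it fell into the background (mean change adjusted p = 0.00188). RNF43, a ubiquitin ligase that removes Wnt receptors from the surface, fell 11.4-fold and 3.84-fold, but its adjusted p of 0.0315 rose to 0.111 with replicates left out. EPB41L4A, of the band 4.1 family, fell 8.10-fold and 3.61-fold, and PRR15L 11-fold and 4.33-fold, with some TRIM58-WT arrays of each in the background. ENTREP1, an endosomal membrane protein, was at least 12-fold lower in A549 and 3.45-fold lower in HCC827 (adjusted p = 0.00302). Of these 15 decreases, 9 moved alike with every replicate left out. The exceptions were CKMT1A (9 of 10), FGL1 (6), EPB41L4A (5), and PTGS2, PRR15L and RNF43 (2 each). The background correction changed more calls. With normexp, which adds an offset that shrinks changes of dim probes, 5 of the 15 increases and 9 of the 15 decreases kept their call, and the changes of FGF2, COPZ2 and AQP3 were 0.63, 0.70 and -0.97.

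Among the genes of matrix and basement membrane, 23 were tested, and 5 of them rose, each alike in both lines: COL4A1, COL4A2, COL7A1, COL18A1 and THBS1. With 1 probe a gene, 1.25% of all genes rose, 1.72% fell, and 0.967% moved alike in each direction. Of the 23, 15 had positive changes in both lines, against 2891 of all 10551 genes tested. The median change of the 23 was 0.49 in A549 and 0.71 in HCC827, against 0.02 and 0.01 for all genes. COL4A1 and COL4A2 encode the partner chains of the collagen IV network of basement membranes. COL4A1 had levels of 0.01, 0.17 and 1.36 in A549 mock and 3.14, 3.28 and 3.57 in TRIM58-WT, and of -2.54 and -3.08 against -1.57 and -2.0 in HCC827 (mean change 1.92 ± 0.28, SE, adjusted p = 0.00834). COL4A2 followed at 4.72, 4.85 and 6.27 against 6.99, 7.56 and 7.71, and at 3.37 and 3.26 against 4.13 and 3.96 (mean change 1.44 ± 0.31, adjusted p = 0.0307). In HCC827 the change of COL4A2 was small, 0.73, and the calls of COL4A2 and COL18A1 were each lost in 8 of the 10 fits with a replicate left out, with adjusted p of up to 0.114 and 0.0977. COL7A1, the collagen of anchoring fibrils, and COL18A1, a basement membrane collagen, had mean changes of 1.23 and 1.01, and THBS1, the matrix protein thrombospondin, of 1.13 (adjusted p = 0.00705, 0.0246 and 0.00930). COL7A1 was not above background in HCC827 mock and was at least 1.60-fold higher there in TRIM58-WT. FBLN5, an elastic fibre protein, fell by 1.16 on the log2 scale on average without separating in each line. With the brightest probe of each, 16 genes of the list were not called, among them SPOCK1 (4.89 in A549 and 0.77 in HCC827, adjusted p = 0.0533) and FBLN1, a fibulin (1.78 and 0.47, adjusted p = 0.0900). A dimmer probe of FBLN1 moved alike (2.38 and 0.90, adjusted p = 0.00924), and did so with every replicate left out.

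The epithelial genes were lower mainly in A549. Of 20 tested, 7 fell, but the median change was -1.47 in A549 and 0.25 in HCC827. Opposite signs were found for 13 of the 20, against 5116 of all 10551 genes tested. Only TJP3, a tight junction protein (at least 4.24-fold lower in A549 and -1.14 in HCC827, adjusted p = 0.00926), and CRB3, a protein of apical polarity (-3.16 and -0.20, adjusted p = 0.0363), fell alike. Of these, TJP3 did so in all 10 fits with a replicate left out and CRB3 in 2. Neither HCC827 change passed its own limma test (adjusted p = 0.394 for TJP3 and 0.961 for CRB3). KRT19, a keratin of simple epithelia, fell from levels of 6.11 to 7.52 to below background in A549, at least 723-fold, while in HCC827 it was 8.80 in both mock replicates and 9.02 and 9.16 in TRIM58-WT. Its change differed between the lines (adjusted p = 6.16e-05), as did that of MAL2 (-7.43 and 0.55, adjusted p = 0.00343). Of 12 mesenchymal genes, COL6A1, a collagen chain (3.67 and 0.77), and LOXL2, a collagen crosslinking oxidase (1.72 and 0.97), rose alike, in 10 and 7 of the 10 such fits, and the mean of S100A4 (-2.59 and -0.03) was called lower.

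**Figure D3:**
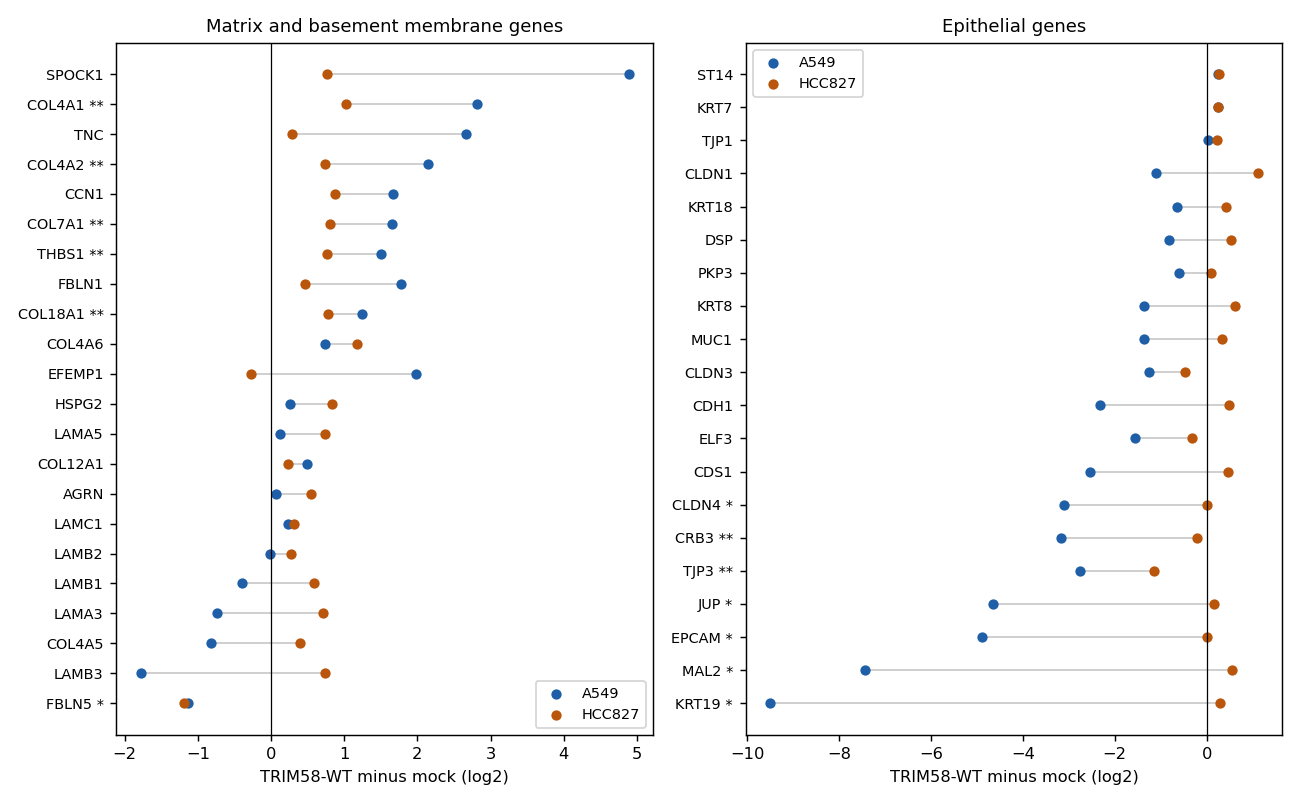
Change of 22 of the 23 tested genes of the matrix list and of all 20 tested genes of the epithelial list in A549 (blue) and HCC827 (orange), on the log2 scale, ordered by the mean change. Genes with ** moved alike, and genes with * were called for the mean change alone. Most matrix genes lie right of 0 in both lines, whereas most epithelial genes lie left of 0 in A549 and close to or right of 0 in HCC827.

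Genes that respond to growth factors and to cell tension were called in small numbers. Of all genes tested, 0.967% moved alike in each direction. Of 18 targets of the YAP co-activator, 3 rose alike: ARHGEF17 (1.47 in A549 and 1.0 in HCC827, adjusted p = 0.0126), PTPN14, a phosphatase that restrains YAP (1.73 and 0.65, adjusted p = 0.0222), and TGFB2 (2.61 and 0.24, adjusted p = 0.0393). Of 13 targets of transforming growth factor beta, TGFB2 and PMEPA1, a feedback inhibitor of the pathway (2.79 and 0.33, adjusted p = 0.0292), rose alike, whereas ID1, an inhibitor of differentiation, fell alike (-1.36 and -0.75, adjusted p = 0.0253). The median change of these 13 genes was -0.27 in A549 and 0.19 in HCC827, and that of the 18 YAP targets was 0.11 and 0.60. In HCC827 the changes of TGFB2 and PMEPA1 did not pass their own limma test (adjusted p = 0.943 and 0.899). Nor did those of ARHGEF17, PTPN14 and ID1 (adjusted p = 0.266, 0.566 and 0.448). TGFB2 was above background on 1 of the 4 A549 mock arrays. With a replicate left out, ARHGEF17 and PMEPA1 moved alike in 8 of the 10 fits, and PTPN14, TGFB2 and ID1 in 2, with adjusted p of up to 0.138.

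Inflammatory and protective genes were lower where they were called. Of 15 cytokine and chemokine genes of NF-kappaB, PTGS2, BIRC3, an inhibitor of apoptosis (-2.22 and -0.30, adjusted p = 0.0259), and the cytokine IL32 (-2.05 and -0.18, adjusted p = 0.0263) fell alike. In HCC827 none of these changes passed its own limma test (adjusted p = 0.390, 0.873 and 0.933). The median change of the 15 was -1.06 in A549 and 0.00 in HCC827, and 7 had opposite signs. Of all genes tested, 1.72% fell and 0.967% fell alike. Of 23 NRF2 targets, the glutathione peroxidase GPX2 (-8.07 and -0.76, adjusted p = 0.00366) and the efflux pump ABCC2 (-1.47 and -0.57, adjusted p = 0.0233) fell alike. Neither passed its own limma test in HCC827 (adjusted p = 0.822 and 0.565). The median change of the 23 was -0.56 in A549 and -0.01 in HCC827, and 10 had opposite signs. GPX2 fell more in A549 than in HCC827 (adjusted p = 0.00986), and it moved alike with every replicate left out, whereas BIRC3, IL32 and ABCC2 did so in 2 of the 10 fits. CTH, which makes cysteine, fell alike among 28 genes of the unfolded protein and amino acid stress responses (-1.97 and -0.67, adjusted p = 0.0200), and did so in 3 of the 10 fits with a replicate left out. Of 21 interferon-stimulated genes, OAS1 was called lower, with opposite signs in the lines (-5.16 and 0.61). Of the 21, 15 had opposite signs and 6 were negative in both lines, against 5116 and 2544 of all 10551 genes tested. No gene of that list was positive in both lines, against 2891 of all. The median change of the list was -1.71 in A549 and 0.36 in HCC827.

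No gene was called in the lists of S phase (25 tested), of G2 and mitosis (25), of G1 cyclins and CDK inhibitors (17), of dynein and dynactin (15), of MAPK feedback (16), of lung lineage (9) and of metallothioneins (8). Where a list had calls but no gene that moved alike, the called genes were lower in A549. Examples are GDF15 among p53 targets (-4.28 and 0.10), ANGPTL4 among hypoxia genes (-1.93 and -0.18), STARD4 among genes of cholesterol and fatty acid synthesis (-3.45 and 0.16), and CD14 among blood cell markers (-3.06 and 0.21). Of the genes that the study names, MKI67, a marker of cycling cells, had a mean change of 0.23 ± 0.21 (SE, adjusted p = 0.600), PARP1 of 0.10 ± 0.23, DYNC1H1 of 0.25 ± 0.11 (adjusted p = 0.220), DYNC1I2 of 0.02 ± 0.10 and GAPDH of 0.03 ± 0.18. None of these 5 was called, and the direction of PARP1, DYNC1I2 and GAPDH turned with a median shift. CDKN1A, which encodes p21, was not tested, since it was not above background on any HCC827 array. In A549 its mock replicates gave -0.35, -0.16 and 0.04, and those of TRIM58-WT gave -0.69, -1.27 and -1.01.

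COL4A1 and COL4A2 lie head to head on chromosome 13, and their promoter is shown because both chains rose alike. Promoters came from RefSeq (assembly GRCh38.p14), and those of PTGS2 and AQP3, which fell, and of FGF2, which rose, are set beside it. Each is printed in the direction of transcription and ends at the last base before the listed start, except that the first covers all 126 bases between the starts of COL4A1 (minus strand) and COL4A2 (plus strand), on the plus strand. Capitals mark TATAAA, the core of a TATA box, and GGGCGG, a GC box, on either strand, and overlapping GC boxes run together.

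COL4A1/COL4A2, chr13:110307158-110307283, plus strand: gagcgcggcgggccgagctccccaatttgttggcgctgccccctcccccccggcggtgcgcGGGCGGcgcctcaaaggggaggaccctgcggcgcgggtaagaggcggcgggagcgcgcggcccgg
FGF2, chr4:122826581-122826830, plus strand: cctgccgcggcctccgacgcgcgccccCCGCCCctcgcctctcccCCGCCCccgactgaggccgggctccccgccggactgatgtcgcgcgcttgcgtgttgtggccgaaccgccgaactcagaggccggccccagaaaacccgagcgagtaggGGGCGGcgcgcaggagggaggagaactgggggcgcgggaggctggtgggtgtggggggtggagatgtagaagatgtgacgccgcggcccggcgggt
PTGS2, chr1:186680424-186680673, minus strand: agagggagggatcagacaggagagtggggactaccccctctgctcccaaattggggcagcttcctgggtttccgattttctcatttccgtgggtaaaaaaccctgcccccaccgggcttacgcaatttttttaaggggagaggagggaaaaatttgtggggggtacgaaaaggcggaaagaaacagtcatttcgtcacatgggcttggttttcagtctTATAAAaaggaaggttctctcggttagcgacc
AQP3, chr9:33447594-33447843, minus strand: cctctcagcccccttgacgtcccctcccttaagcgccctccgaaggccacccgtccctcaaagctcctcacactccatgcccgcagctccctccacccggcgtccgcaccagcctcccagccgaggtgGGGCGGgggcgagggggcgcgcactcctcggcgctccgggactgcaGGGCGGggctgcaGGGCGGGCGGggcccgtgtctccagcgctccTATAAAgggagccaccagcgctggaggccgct

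The collagen promoter held 20 CG dinucleotides in 126 bases and no TATAAA. That of FGF2 held 33 in 250 bases, 3 GC boxes and no TATAAA. The promoter of PTGS2 held 9 CG dinucleotides and no GC box, and that of AQP3 held 23 and 4 GC boxes, and in both TATAAA began at position -32, counted back from the start. Over the first listed window of each gene, 90 of the 110 genes that rose alike, 78 of the 107 that fell alike and 8606 of the 10551 genes tested had a promoter. Among the 250 bases before the start, TATAAA on either strand was found in 6.67% of the genes that rose alike, in 16.7% of those that fell alike and in 5.24% of all. Fewer than 5 CG dinucleotides were found in 8.89%, 24.4% and 6.36%, and GGGCGG in 70.0%, 57.7% and 68.6%. For genes with a single listed window, the TATAAA shares were 5.17%, 18.9% and 5.16%. These shares are descriptions of the letters in these windows, and no test was made.

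The mean could also be carried by 1 line. The genes with the smallest p for a difference between the lines, among those called for the mean, were CAVIN3, TUSC1, STK26 and SLC7A7. CAVIN3, a coat protein of caveolae, was at 3.56, 3.72 and 2.96 in A549 mock, was not above background in A549 TRIM58-WT, and went the other way in HCC827, from 3.77 and 3.89 to 5.39 and 5.07. Its difference was -9.53 (adjusted p = 3.91e-05). SLC7A7, an amino acid transporter subunit (-8.00 and 1.01), the kinase STK26 (-6.19 and 0.17) and TUSC1 (-4.60 and 0.78) likewise fell into the background in A549 and had a positive HCC827 change. The A549 bounds were at least 65.8-fold for CAVIN3, 58-fold for SLC7A7, 29.0-fold for STK26 and 4.84-fold for TUSC1.

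A549 mock replicate 3 lay nearer to TRIM58-WT than the other mock replicates for most shared genes. It was the nearest of the 3 mock replicates to TRIM58-WT for 221 of the 253 probes (87.4%), against 62.8% of all tested probes and 81.0% of the 922 probes called in A549 that did not move alike. At the median of the 253, it lay 34.4% of the way from the mean of mock replicates 1 and 2 to the TRIM58-WT mean. This replicate also carried the TRIM58 signal and a low 75th percentile, as given above, and their part in the result was not tested. Without it, 637 probes were called and 329 genes moved alike, 213 of them among the 217. Within slide 1 and within slide 2, the median A549 change of the 253 probes was 2.04 and 1.93 in size, with a sign that the choice of these probes fixed. HCC827 lay on slide 1 alone. No array left 142 of the 253 probes in the background, compared with 13888 of the 15845 tested. Of 37 genes that moved alike and had further tested probes, 31 had the same signs throughout and 6 did not, among them RAC2 (1.86 and 0.36 in the called probe, -0.13 and 0.29 in the other).

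**Figure D4:**
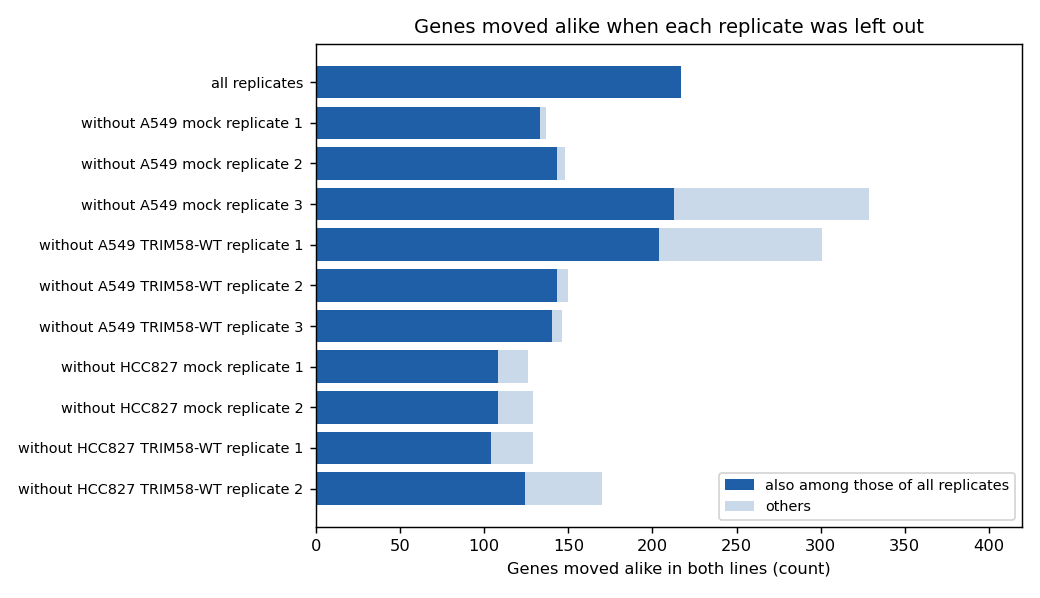
Number of genes that moved alike with all replicates and with each replicate left out, the dark part of a bar counting those also found with all replicates (217). Counts run from 126 without HCC827 mock replicate 1 to 329 without A549 mock replicate 3.

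Just inside the 2-fold threshold lay BIN1 and CMTM1 (mean changes of 1.002 and 1.003) and SLC35D2 and MREG (-1.002 and -1.003). Just outside, with an adjusted p under 0.05 and both lines apart, lay FJX1 and SLC9A5 (both 0.996), SLC4A11 (-0.997) and DBNDD2 (-0.991).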

How the data were processed

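RNA of stable transfectants was hybridised to Agilent SuperPrint G3 human arrays in 1 colour. Per the file headers, the authors extracted an intensity for each spot with Feature Extraction 11.5.1.1 (the submitters' processing notes name 10.7), with background and spatial trend removed and no scaling between arrays. A log2 table of these arrays that the authors deposited, its normalization unstated, served as an alternative. Their methods name a Benjamini-Hochberg adjusted p under 0.05 and a 2-fold change.

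With R 4.3.3, control and outlier spots were left out, the spots of a probe averaged, and the log2 signal set relative to the array's own 75th percentile. This left 28 values missing. The number of arrays limits the precision. Samples were grouped by label alone, and no column without a sample was present (0). Contrasts of 4 group means were tested with limma 3.58.1 (lmFit, eBayes), adjusted over all probes tested. Levels "at least N-fold" apart set the brighter group against the lowest signal above background on each array of the dimmer one. Lists used 1 probe per gene, the brightest. On simulated data made from these arrays, the steps were tested with 200 of 15822 probes changed. Each changed by 2 on the log2 scale, equally in both lines, with independent noise. Of these, 91.0% were called and 90.5% moved alike, with 6 unchanged probes called. The real probes that moved alike had median sizes of 1.89 in A549 and 0.87 in HCC827. These shares therefore check the steps and do not give the recovery or false calls in the real data.

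The members, lists and tests were chosen with earlier results of these data known. Genes named were those the study names, the 15 largest increases and decreases that moved alike (ordered by the smaller of both lines' changes), up to 4 called genes of each list, and the 4 smallest p for a difference between the lines. A few genes are not reported here. Genes beyond this rule were chosen after their values were seen. The matrix, epithelial, mesenchymal, YAP, TGF-beta, NF-kappaB, NRF2, stress, interferon, p53, hypoxia, cholesterol, cell cycle, dynein, MAPK, lung, metallothionein and other marker lists are given in the report. Symbols, chromosomes and promoters came from RefSeq (GRCh38.p14). Alternatives were other scalings, background corrections and filters, other fits and the methods' t-test, other uses of arrays 1-1 and 1-2, and each replicate left out. Plots were made in matplotlib 3.10.9 (Python 3.11.15).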

Additional observations from a re-analysis of the deposited data

Results flagged for a closer look

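For 16 of the named genes the change differed between the lines at a limma adjusted p under 0.05, although the mean of both was called. Values are the A549 change minus the HCC827 change on the log2 scale. The differences were -9.53 for CAVIN3 (adjusted p = 3.91e-05), -9.01 for SLC7A7, -6.35 for STK26 and -5.37 for TUSC1. Epithelial genes gave -9.79 for KRT19 (adjusted p = 6.16e-05), -7.98 for MAL2 (adjusted p = 0.00343) and -8.01 for CEACAM6 (adjusted p = 0.0113).

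Of the metabolic and stress genes, GPX2 gave -7.32 (adjusted p = 0.00986), HGD -4.97 (adjusted p = 0.0188), STARD4 -3.60 (adjusted p = 0.0292), ANGPTL4 -1.75 (adjusted p = 0.0310) and GDF15 -4.39 (adjusted p = 0.00521). OAS1 gave -5.77 (adjusted p = 0.0193), CD14 -3.27 (adjusted p = 0.00378), S100A4 -2.56 (adjusted p = 0.0164) and COL6A1 2.91 (adjusted p = 0.0147). COL6A1 was the only one of the 16 with the higher change in A549. CEACAM6, COL6A1, GPX2 and HGD nevertheless moved alike, since their HCC827 groups did not overlap either. Single outlying replicates were not tested, since no group held more than 3.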

How the results depend on the processing

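Against 386 probes called and 217 genes that moved alike, normexp background correction gave 116 and 76, a filter on every array 197 and 119, and cell line as an additive block 180 called probes. Slide 1 alone gave 634 (325 genes), averaging A549 TRIM58-WT replicates 2 and 3 gave 256 (146 genes), and no fold threshold 1053 and 636. The averaged pair lay about as close together as arrays 1-1 and 1-2 of 1 control cell (SD of 0.23 against 0.27). The main counts treat it as 2 replicates. The methods' t-test was asked to pass in each line, with at least a 2-fold change of the same sign in each. It gave 30 probes and 27 genes unadjusted and 0 and 0 adjusted. By limma, 3420 probes had an unadjusted p under 0.05 for the mean change alone. That count asked for no fold or sign in each line, so it is not a like comparison. Asking for both lines' own calls left 6 genes, and a 2-fold change of one sign in each line without a test 97, of which 75 were among the 217. With a replicate left out, called probes ran from 197 (without HCC827 mock replicate 1) to 637 (without A549 mock replicate 3) and genes from 126 to 329. Of the 217 genes, 87 stayed in all 10 of these fits. Deviations of samples with the same replicate number had correlations of 0.53, -0.44 and 0.52 in A549 and 0.07 in HCC827. Replicate numbers thus gave no regular pairing, and a replicate block gave 373 probes and 206 genes. In A549 the replicates numbered 2 lay on different slides and those numbered 3 on the same slide. Quantile normalization, a median shift, no filter, outlier spots kept, the slide block, the authors' table and the other uses of arrays 1-1 and 1-2 gave 313 to 508 probes and 174 to 254 genes, all within 1.5 times, although the median shift changed the split to 41 higher and 133 lower genes. Similar counts did not mean the same genes. Without a filter 212 genes moved alike, and 142 of them were among the 217. Named genes kept their side of the threshold in 1318 of 1614 alternatives, lost it in 281 and turned sign in 15. The turns were of genes near 0. GAPDH went to -0.13 with a median shift, -0.04 with normexp, -0.07 on slide 1, -0.02 with the averaged replicates and -0.03 to 0.14 with replicates left out. DYNC1I2 went to -0.15 with a median shift, -0.05 on slide 1 and -0.02 to 0.06 with replicates left out, and PARP1 to -0.07 with a median shift and -0.08 on slide 1. The cause of these shifts was not tested.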

Other observations

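Further genes outside the named set, chosen after their values were seen, moved alike in both lines. NOTCH3, a receptor of cell fate decisions, changed by -1.25 in A549 and -1.24 in HCC827 (mean change limma adjusted p = 0.0109). FOXC1, a transcription factor, changed by -1.13 and -1.11 (adjusted p = 0.0116), KITLG, the ligand of the KIT receptor, by -1.25 in each (adjusted p = 0.0249), and AHR, the receptor of dioxin-like compounds, by -1.49 and -1.19 (adjusted p = 0.0150). With single replicates left out, NOTCH3 and AHR moved alike in 9 of the 10 fits, FOXC1 in 8 and KITLG in 2. MYCL, of the MYC family, was at least 1.66-fold lower in A549, where it fell into the background, and 3.50-fold lower in HCC827 (adjusted p = 0.00200), and DOCK11, an activator of CDC42, changed by -1.37 and -2.26 (adjusted p = 0.00417), both in all 10 fits.

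Of the increases, HHAT, which attaches palmitate to hedgehog proteins, changed by 1.69 and 1.13 (adjusted p = 0.000851) and NNMT, which methylates nicotinamide, by 0.95 and 1.80 (adjusted p = 0.00927), both in all 10 fits. EDN2, an endothelin, changed by 2.88 and 1.02 (adjusted p = 0.00516). IL11, a cytokine, changed by 4.24 and 0.73 (adjusted p = 0.0154) and lost its call in 3 of the 10 fits, each time without an HCC827 replicate.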
